A study of Arabidopsis thaliana with 4 samples.

Results

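LPLAT2 and 6 other genes of phospholipid acyl editing and triacylglycerol assembly were followed in 4 RNA-seq libraries of Arabidopsis thaliana seedlings. The 7 genes were chosen by name from 34133 loci: the lysophosphatidylcholine acyltransferase genes LPLAT2 and LPLAT1, the lysophosphatidylethanolamine acyltransferase genes LPEAT1 and LPEAT2, and PDAT1, ROD1 and DGAT1. The group was drawn up around LPLAT2 because its transcript was low in the prp31 mutant only. Its levels in all 4 libraries are therefore a description and not a result. All 7 were in the table and all 7 averaged at least 1 FPKM (fragments per kilobase of transcript, scaled to the mapped fragments of the library) over the libraries, the filter used for counts of loci. The libraries were made from whole 10-day-old seedlings on agar medium, 1 library each of the mutants prp31, zop1 and sta1 and of the wild type, all in the C24 accession. All seedlings grew at 23 °C with 16 h of light and 8 h of dark. PRP31 and STA1 belong to the spliceosome, and ZOP1 is a zinc-finger protein linked to pre-mRNA splicing. The labels name each mutant only by its gene and give neither the allele, the kind of lesion nor the number of plants, so a mutant stands here for 1 library of 1 line.

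In acyl editing, a fatty acid is released from phosphatidylcholine and another is put in its place from the acyl-CoA pool. Lysophosphatidylcholine acyltransferases carry out the reacylation, and phosphatidylcholine is the lipid on which FAD2 and FAD3 desaturate fatty acids in the endoplasmic reticulum. In Arabidopsis LPLAT1 and LPLAT2 are a pair of paralogous, membrane-bound O-acyltransferases with overlapping roles in leaves and seeds. PDAT1 moves an acyl group from phosphatidylcholine to diacylglycerol, ROD1 exchanges the phosphocholine head group between both lipids, and DGAT1 makes triacylglycerol from diacylglycerol and acyl-CoA.

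Because the mutated proteins act in splicing, the gene models of the LPLAT pair were compared first. LPLAT2 (AT1G63050) lies at chr1:23375877-23378355 and LPLAT1 (AT1G12640) at chr1:4303280-4305907, both on the minus strand of TAIR10.1, each with 1 annotated transcript. Both have 8 exons and 7 introns. Exons 2 to 7 have the same lengths in the paralogs (56, 221, 409, 86, 64 and 119 nt), while none of the 7 introns do. The longest intron of LPLAT2 is intron 5, at 197 nt, and its counterpart in LPLAT1 has 110 nt. The start of each intron is given for LPLAT2 and LPLAT1, as 10 exon bases followed by 10 intron bases, 5′ to 3′ on the transcribed strand, with the first 2 bases of the intron in capitals. They are RefSeq's sequence of the Columbia reference genome, since that of C24 was not used here.
LPLAT2 intron 1, chr1:23377864-23377883: tcattggctgGTaaagctta
LPLAT1 intron 1, chr1:4305361-4305380: ttattggctgGTactaaatt
LPLAT2 intron 2, chr1:23377731-23377750: gattctactgGTactctttt
LPLAT1 intron 2, chr1:4305200-4305219: gattctactgGTaactctta
LPLAT2 intron 3, chr1:23377404-23377423: agagaaaggaGTaagtgttt
LPLAT1 intron 3, chr1:4304860-4304879: agggaaagggGTaagcttct
LPLAT2 intron 4, chr1:23376912-23376931: ctccgtcactGTgagtaatg
LPLAT1 intron 4, chr1:4304350-4304369: ctccgtcactGTaagtagtc
LPLAT2 intron 5, chr1:23376745-23376764: tgtctggcatGTgagtgctc
LPLAT1 intron 5, chr1:4304178-4304197: ggtttggcatGTgagttctc
LPLAT2 intron 6, chr1:23376484-23376503: ggttcgaaagGTacgatact
LPLAT1 intron 6, chr1:4304004-4304023: ggctcacgggGTaaatacaa
LPLAT2 intron 7, chr1:23376270-23376289: cggtttcatgGTaactaaaa
LPLAT1 intron 7, chr1:4303802-4303821: cggtttcatgGTaattacca

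All 14 introns begin with GT and end with AG, as 98.7% and 99.8% of the 131098 annotated introns of protein-coding transcripts do. The word GTAAGT, read only at the first 6 intron bases of the transcribed strand, occurs at 1 intron of each gene, intron 3 of LPLAT2 and intron 4 of LPLAT1, and at 9.08% of all introns. Intron 5 is the only one at which both genes share these 6 bases (GTGAGT). The rarest of these words were GTACGA at intron 6 of LPLAT2, found at 0.424% of all introns, and GTACTC at intron 2, found at 0.511%, and the rarest in LPLAT1 was GTACTA at intron 1, found at 0.715%. Over the 20 bases shown the genes match at 8 (intron 6) to 17 (introns 4, 5 and 7) positions. These counts describe letters, and splicing itself was not measured by values per locus.

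**Figure D1:**
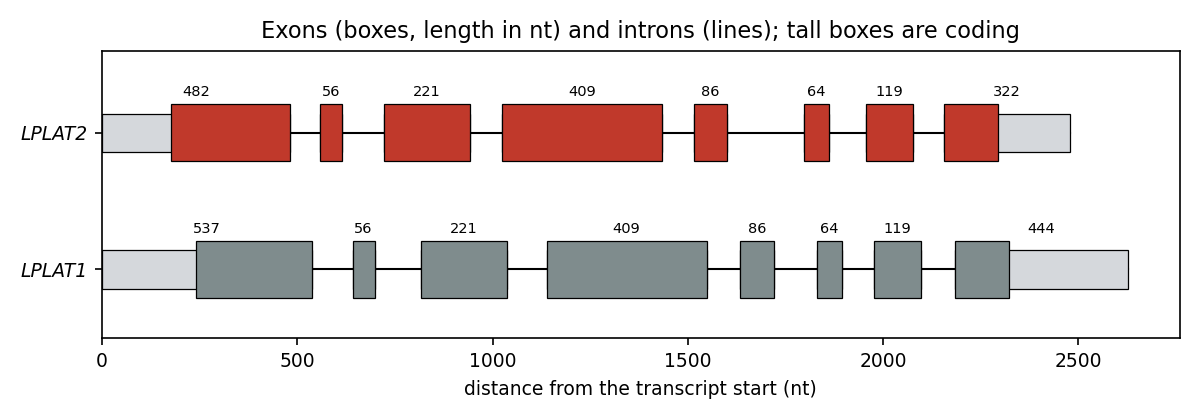
Exon maps of LPLAT2 (top) and LPLAT1 (bottom), drawn to scale against the distance in nt from the transcript start. Boxes are exons with their length in nt, tall parts are coding and lines are introns; exons 2 to 7 have equal lengths in the pair (56 to 409 nt), and intron 5 is longer in LPLAT2.

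The paralogs are different enough for their reads to be told apart over long stretches. Their coding sequences (1398 nt in LPLAT2, 1389 nt in LPLAT1) are identical at 84.4% of 1389 aligned positions. None of the 1349 stretches of 50 nt in the LPLAT2 coding sequence occurs in that of LPLAT1. The longest identical run has 35 nt, 8 at the end of exon 1 and 27 at the start of exon 2, and is printed because reads within it could come from either gene. It spans chr1:23377770-23377881 with intron 1 left out, and capitals mark exon 2.
Shared run: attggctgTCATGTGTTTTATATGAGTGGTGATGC

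LPLAT2 stood at 2.42 FPKM in prp31, 12.5 FPKM in zop1, 13.6 FPKM in sta1 and 13.9 FPKM in C24. The prp31 library is thus far below the other 3, which lie close together. The level was 5.76-fold lower in prp31 than in C24 (95% counting interval 4.63 to 7.22), 5.16-fold lower than in zop1 (4.12 to 6.51) and 5.61-fold lower than in sta1 (4.50 to 7.06). These intervals are exact binomial intervals on the whole reads that the FPKM values imply. They cover counting error only and not differences between plants or preparations, and with 1 library per genotype no test is possible. The reads were 98 in prp31, 377 in zop1, 447 in sta1 and 509 in C24, which are lower bounds, since reads divided by one common factor would give these same FPKM values. The annotated transcript length would put them near 205 in prp31, 790 in zop1, 937 in sta1 and 1067 in C24. The ratio to C24 was 0.896 in zop1 (0.783 to 1.03) and 0.975 in sta1 (0.857 to 1.11). At these lower-bound reads neither library differed from C24 beyond counting error. Reads near the length-based numbers would narrow the intervals. Whether zop1 would then lie below C24 by more than counting error was not tested. In whole seedlings, fewer cells of a type that uses the gene and less RNA per cell cannot be told apart.

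A locus was said to meet the 2-fold rule when log2(FPKM + 1) differed by at least 1. In prp31 against C24, 82 of 19240 loci were lower by this rule (0.426%) and 99 higher (0.515%). LPLAT2, at -2.13, was the only 1 of the 7 genes to meet it, in 1 of the contrasts that chose the gene. Among 18621 protein-coding loci its difference ranked 14 from the lowest. With a pseudocount of 5 in place of 1 the difference was -1.35. Lower by the rule in prp31 than in zop1 were LPLAT2 alone of the 7 genes and 0.873% of loci. For prp31 against sta1 these were LPLAT2 alone and 0.65% of loci. Both contrasts were also part of the choice of a gene low in prp31 only. None of the 7 genes met the rule in zop1, where 0.956% of loci were higher and 1.28% lower, or in sta1, where 0.79% were higher and 1.19% lower. The LPLAT2 difference was -0.15 in zop1 and -0.03 in sta1, values that the choice of the gene also used.

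**Figure D2:**
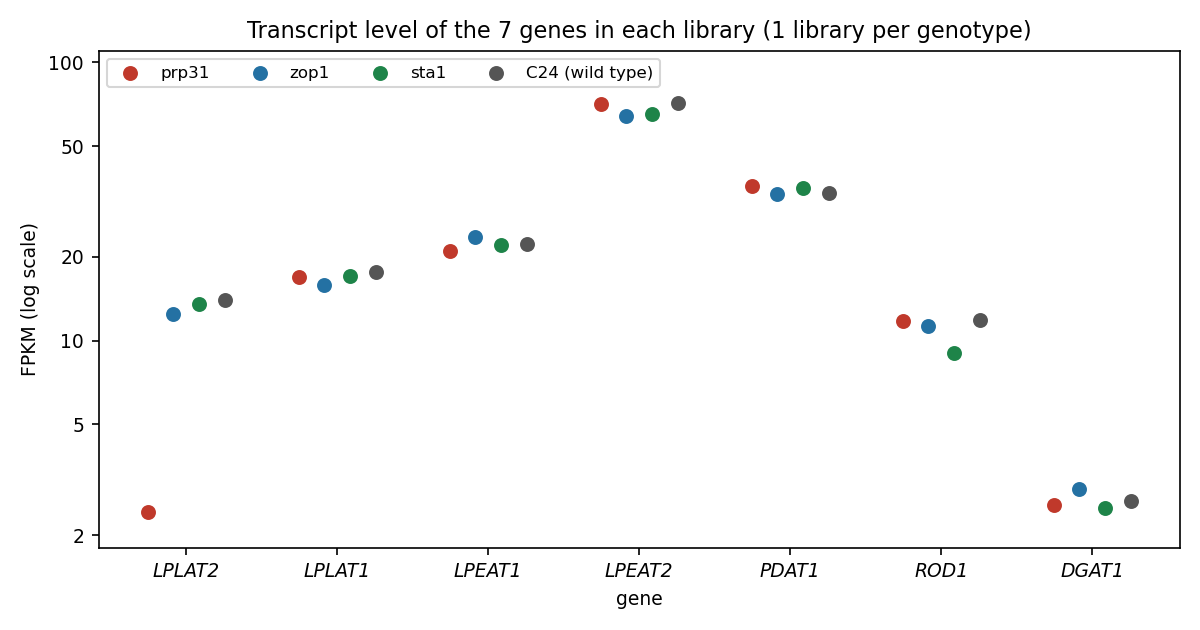
FPKM (log axis) of the 7 genes, with 1 point per library in the order prp31, zop1, sta1 and C24. LPLAT2 in prp31 (2.42 FPKM) lies apart from its other 3 values (12.5 to 13.9 FPKM), while each other gene spans less than the rule's 2-fold over the libraries.

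The paralog LPLAT1 was at 16.9 FPKM in prp31, 15.9 FPKM in zop1, 17.1 FPKM in sta1 and 17.7 FPKM in C24. Its highest value was 1.12 times its lowest. The ratio to C24 was 0.958 in prp31 (0.890 to 1.03) and 0.965 in sta1 (0.893 to 1.04), within counting error, and 0.897 in zop1 (0.826 to 0.973), below C24 by more than counting error. LPLAT1 was therefore not higher than in C24 in the library in which LPLAT2 was low. Summed over the pair, transcript levels per length were 19.4 FPKM in prp31, 28.3 FPKM in zop1, 30.7 FPKM in sta1 and 31.6 FPKM in C24. LPLAT2 made up 12.5% of this sum in prp31, against 44.1% in zop1, 44.3% in sta1 and 44.1% in C24. The pair's sum differed from C24 by -38.8% in prp31, a figure that follows from the low LPLAT2 value. LPLAT1 overlaps the neighbouring gene AT1G12650 by 117 nt and the libraries are not stated to be stranded, so a part of its reads may belong to that gene, which stood at 12.8 FPKM in prp31, 12.9 FPKM in zop1, 13.6 FPKM in sta1 and 14.1 FPKM in C24. LPLAT2 overlaps no annotated gene.

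LPEAT1 (AT1G80950) and LPEAT2 (AT2G45670) acylate lysophosphatidylethanolamine. LPEAT1 was at 21.1 FPKM in prp31, 23.6 FPKM in zop1, 22.1 FPKM in sta1 and 22.3 FPKM in C24, and no mutant differed from C24 beyond counting error (ratios of 0.946 for prp31, 1.06 for zop1 and 0.992 for sta1). LPEAT1 overlaps both neighbouring genes, by 141 and 142 nt, with the same limit on strand. LPEAT2 had the highest level of the 7 genes, at 70.7 FPKM in prp31, 64.1 FPKM in zop1, 65.0 FPKM in sta1 and 71.1 FPKM in C24. The prp31 library stood at 0.994 times C24 (0.963 to 1.03), zop1 at 0.901 times (0.869 to 0.934) and sta1 at 0.914 times (0.882 to 0.946). The zop1 and sta1 values were below C24 by more than counting error. For LPEAT2 and PDAT1 whole reads could not be recovered, and the intervals rest on reads approximated from transcript length.

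PDAT1 (AT5G13640), which forms triacylglycerol and lysophosphatidylcholine from phosphatidylcholine and diacylglycerol, varied least. It was at 35.9 FPKM in prp31, 33.7 FPKM in zop1, 35.5 FPKM in sta1 and 33.9 FPKM in C24, a span of 1.07 times. The prp31 library stood at 1.06 times C24 (1.02 to 1.102), zop1 at 0.993 times (0.952 to 1.04) and sta1 at 1.05 times (1.005 to 1.09). Of the 7 genes PDAT1 was the only 1 above C24 in prp31.

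ROD1 (AT3G15820), the phosphatidylcholine:diacylglycerol cholinephosphotransferase gene, was at 11.8 FPKM in prp31, 11.3 FPKM in zop1, 9.02 FPKM in sta1 and 11.8 FPKM in C24. The sta1 library was the low one. There the level was 1.31-fold lower than in C24 (1.15 to 1.49), the largest difference among the 6 other genes, from 401 reads in sta1 and 584 in C24. In prp31 the ratio to C24 was 0.995 (0.888 to 1.11). prp31 and zop1 were also above sta1, with ratios to sta1 of 1.305 for prp31 (1.15 to 1.48) and 1.26 for zop1 (1.096 to 1.44). The log2 difference of sta1 from C24, -0.36, does not meet the 2-fold rule. With 3 exons ROD1 has the fewest of the 7 genes, and both of its introns, at 578 and 873 nt, are longer than any intron of the LPLAT pair.

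DGAT1 (AT2G19450), the acyl-CoA-dependent enzyme of triacylglycerol synthesis, was the gene with the lowest level in C24. It was at 2.57 FPKM in prp31, 2.92 FPKM in zop1, 2.51 FPKM in sta1 and 2.66 FPKM in C24, from 208 to 262 reads. No mutant differed from C24 beyond counting error, with ratios of 0.965 for prp31 (0.807 to 1.15), 1.097 for zop1 (0.910 to 1.32) and 0.943 for sta1 (0.780 to 1.14). DGAT1 has 16 exons, the most of the group, and none of its 15 introns begins with GTAAGT.

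**Figure D3:**
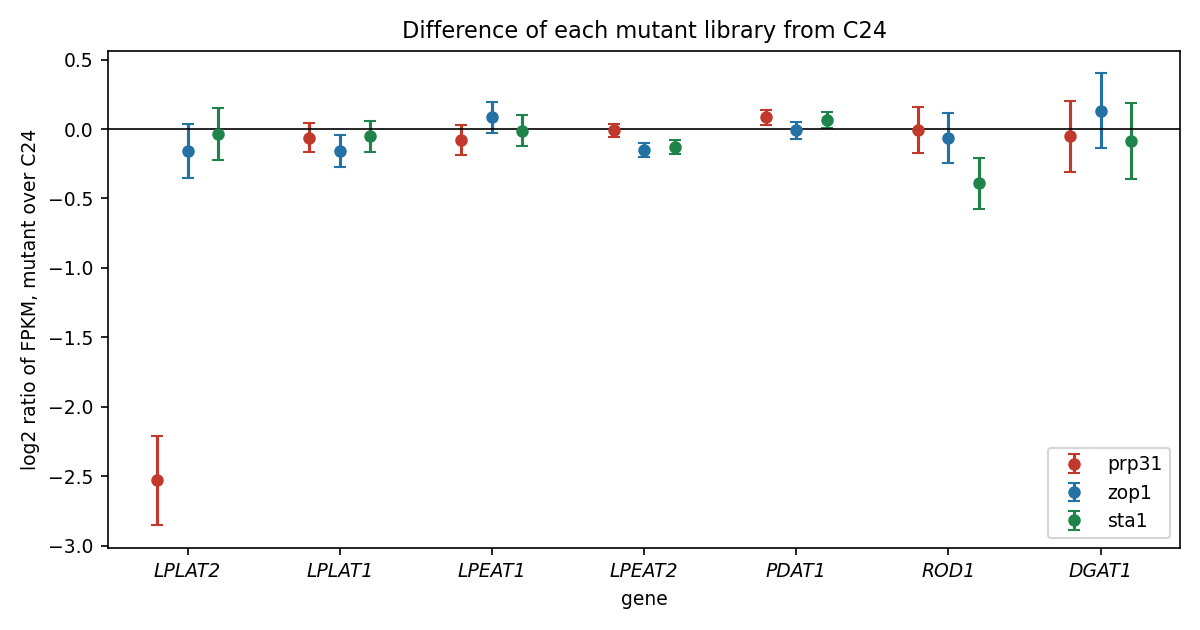
Log2 ratio of FPKM, mutant over C24, for the 7 genes in prp31, zop1 and sta1, with 95% counting intervals as bars (all mutants share the single C24 library). LPLAT2 in prp31 lies near -2.53 and ROD1 in sta1 near -0.39, while the other points lie within 0.16 of 0.

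The order of levels was the same in zop1, sta1 and C24, running from LPEAT2 over PDAT1, LPEAT1, LPLAT1, LPLAT2 and ROD1 to DGAT1. In these 3 libraries LPLAT2 (12.5 to 13.9 FPKM) was above the range of ROD1 (9.02 to 11.8 FPKM) and below that of LPLAT1 (15.9 to 17.7 FPKM), without overlap. In prp31 LPLAT2 took the last place, next to DGAT1 at 2.57 FPKM. Leaving out LPLAT2, the other 6 genes summed to 159.0 FPKM in prp31, 151.5 FPKM in zop1, 151.1 FPKM in sta1 and 159.5 FPKM in C24. Within 0.25 of C24 on the log2(FPKM + 1) scale were 6 of the 7 genes in prp31, 7 in zop1 and 6 in sta1, beside 84.8% of all loci in prp31, 68.7% in zop1 and 70.9% in sta1. For prp31 the median difference of the 7 genes was -0.04 and that of all loci -0.02, for zop1 they were -0.06 and -0.02, and for sta1 -0.05 and -0.06.

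Low values in prp31 alone were rare. Only 15 of the 19240 loci (0.078%) were lower by the 2-fold rule in prp31 than in each of the other 3 libraries, against 29 (0.151%) for zop1, 31 (0.161%) for sta1 and 23 (0.12%) for C24. Of the 15 loci, 10 are protein-coding. LPLAT2, which was chosen for being low in prp31 only, ranked 5 among them by its gap to the lowest other library, -1.98 on the log2(FPKM + 1) scale. The 4 above it and the 1 after it are listed at 0 in prp31 and rest on 1 to 10 reads in C24. NAS2 (AT5G56080), a nicotianamine synthase gene of metal transport, was at 13.1 FPKM in prp31, 48.6 FPKM in zop1, 42.4 FPKM in sta1 and 31.02 FPKM in C24. PDIL5-4 (AT4G27080), a protein disulfide isomerase-like gene, was at 12.4 FPKM in prp31, 28.8 FPKM in zop1, 28.3 FPKM in sta1 and 28.0 FPKM in C24. Just inside the threshold was SAG29 (AT5G13170), a senescence-associated sugar transporter gene, at -1.04, and just outside AT5G27889 at -0.99.

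Likeness to LPLAT2 was measured as the distance between profiles of log2(FPKM + 1) over the 4 libraries, each centred on its own mean. The 5 nearest protein-coding loci were AT3G16712 (0.295), AT1G18871 (0.301), AT3G12900 (0.712), NAS2 (0.717) and AT5G27889 (0.810). The first 2 are short loci with 1 read in each library but prp31, and AT5G27889 had 4 to 10 reads. AT3G12900 was at 0.316 FPKM in prp31, 2.32 FPKM in zop1, 2.31 FPKM in sta1 and 1.98 FPKM in C24, from 15 reads in prp31 and 85 in C24. Of the other acyl-editing genes the nearest was LPEAT1, at 1.71 and rank 3496 of 18620, and the farthest ROD1, at 1.93 and rank 15613. LPLAT2 was chosen on this same profile, so the distances are a description and not a result.

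LPLAT2 lies on the same chromosome as PRP31, the gene mutated in the prp31 line, and 1.18 Mb from it. PRP31 itself was at 16.4 FPKM in prp31, 25.1 FPKM in zop1, 23.7 FPKM in sta1 and 23.2 FPKM in C24. Within 100 kb of LPLAT2 none of 34 other loci averaging 1 FPKM or more met the 2-fold rule in prp31. That is near the share of all loci (0.426% lower and 0.515% higher). The differences of the 34 loci from C24 ran from -0.52 to 0.34. The windows and the closest expressed genes were chosen after values were seen. The closest expressed genes were NRPD1A (AT1G63020), which encodes the largest subunit of RNA polymerase IV, and AT1G63080. NRPD1A was at 0.923 FPKM in prp31, 0.969 FPKM in zop1, 1.05 FPKM in sta1 and 1.14 FPKM in C24. AT1G63080 was at 1.13 FPKM in prp31, 1.49 FPKM in zop1, 1.31 FPKM in sta1 and 1.403 FPKM in C24. Of the 3 loci directly on either side, AT1G63040 was at 0.0338 to 0.0453 FPKM and AT1G63030, AT1G63055, AT1G63057 and AT1G63060 were listed at 0 in every library. Between PRP31 and LPLAT2, 4 of 192 loci were lower in prp31 (2.08%, beside 0.426% of all loci) and 1 higher (0.521%, beside 0.515%). The lower ones were the microRNA loci MIR846, MIR171c and MIR413, with 7 or fewer reads in C24, and AT1G62510, at 301 FPKM in prp31, 400.8 FPKM in zop1, 466 FPKM in sta1 and 645 FPKM in C24. Whether the low LPLAT2 level goes with its position was not tested.

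**Figure D4:**
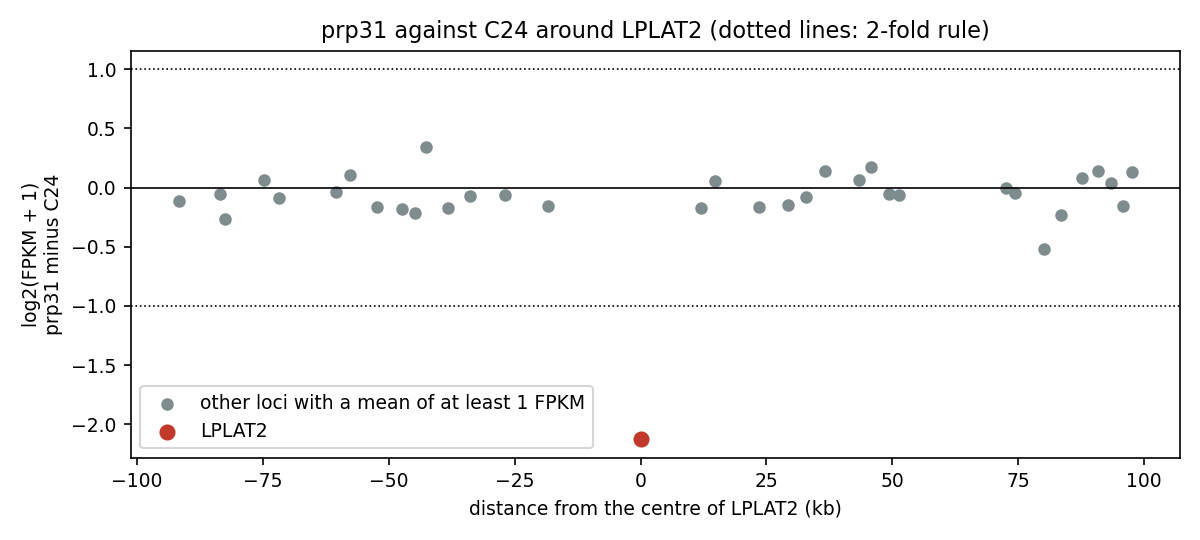
Difference of prp31 from C24 in log2(FPKM + 1) against the distance in kb from the centre of LPLAT2, for loci within 100 kb that averaged 1 FPKM or more. The 34 other loci (grey) lie between -0.52 and 0.34, and LPLAT2 (red) at -2.13.

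The wider pathway was described from lists of glycerolipid genes drawn up with earlier results of these data known. Of 6 measured genes that build phosphatidate and diacylglycerol de novo, none met the 2-fold rule in any mutant. Per mutant and direction, 0.426% to 1.28% of all loci met it. None among so few genes, here or in the lists below, is near that share. The acyltransferase gene LPAT5 (AT3G18850) differed most in each, at 11.01 FPKM in prp31, 8.97 FPKM in zop1, 7.54 FPKM in sta1 and 14.5 FPKM in C24. All 3 mutants were below C24, and the sta1 level was 1.93-fold lower (1.74 to 2.14). That interval rests on reads approximated from transcript length. None of 16 head group genes met the rule either. PSD1 (AT4G16700), the mitochondrial phosphatidylserine decarboxylase gene, was at 2.05 FPKM in prp31, 3.29 FPKM in zop1, 2.005 FPKM in sta1 and 1.22 FPKM in C24, so C24 was the low library. Its zop1 level was 2.70 times that of C24 (2.07 to 3.54), a difference of 0.95 on the log2(FPKM + 1) scale. NMT3 (AT1G73600), a phosphoethanolamine methyltransferase gene, was at 303 FPKM in prp31, 237 FPKM in zop1, 198 FPKM in sta1 and 291 FPKM in C24.

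None of 6 desaturase genes met the rule, near the share of all loci (0.426% to 1.28% per mutant and direction). FAD2 (AT3G12120), whose enzyme desaturates oleate on phosphatidylcholine, was at 547 FPKM in prp31, 468 FPKM in zop1, 501 FPKM in sta1 and 608 FPKM in C24. FAD3 (AT2G29980), which acts next, was at 61.3 FPKM in prp31, 64.1 FPKM in zop1, 61.1 FPKM in sta1 and 67.7 FPKM in C24. Both had their highest level in C24. FAD8 (AT5G05580), a plastid desaturase gene, was instead lowest there, at 62.1 FPKM in prp31, 63.7 FPKM in zop1, 66.0 FPKM in sta1 and 50.9 FPKM in C24. The 8 acyl-CoA synthetase genes and the 6 acyl-CoA-binding protein genes also held none past the rule. The largest differences in prp31 were 0.23 in LACS3 (AT1G64400) and -0.35 in ACBP5 (AT5G27630). In zop1 they were -0.36 in LACS4 (AT4G23850) and 0.19 in ACBP1 (AT5G53470), and in sta1 -0.54 in LACS1 (AT2G47240) and 0.26 in ACBP3 (AT4G24230).

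Of 16 measured phospholipase genes, 1 was lower by the rule in zop1 (beside 1.28% of all loci) and in sta1 (beside 1.19%), and none in prp31 (beside 0.426%). PLA2-ALPHA (AT2G06925), a secretory phospholipase A2 gene that releases a fatty acid and a lysophospholipid, was at 16.3 FPKM in prp31, 7.69 FPKM in zop1, 7.80 FPKM in sta1 and 18.6 FPKM in C24. It was 2.41-fold lower in zop1 (1.99 to 2.94) and 2.38-fold lower in sta1 (1.98 to 2.88), while the prp31 ratio was 0.876 (0.762 to 1.01). PLDZETA2 (AT3G05630), a phospholipase D gene known to respond to phosphate starvation, was at 4.09 FPKM in prp31, 3.43 FPKM in zop1, 2.49 FPKM in sta1 and 1.59 FPKM in C24. Its prp31 level was 2.58 times that of C24 (2.23 to 2.98), just short of the rule at 0.98. Among 7 measured genes of triacylglycerol synthesis, storage and breakdown none met the rule, again near the share of all loci. The largest differences there were -0.68 in OLEO2 (AT5G40420) in prp31, -0.97 in OLEO1 (AT4G25140) in zop1 and -0.75 in OLEO4 (AT3G27660) in sta1, all oleosins of oil bodies. In sta1, by contrast, OLEO1 was at 0.55 and OLEO2 at 0.67, above C24, while in prp31 and zop1 all 3 were below C24. By their medians the lists lay between -0.14 and 0.07 in prp31, -0.11 and 0.03 in zop1, and -0.17 and 0.19 in sta1.

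**Figure D5:**
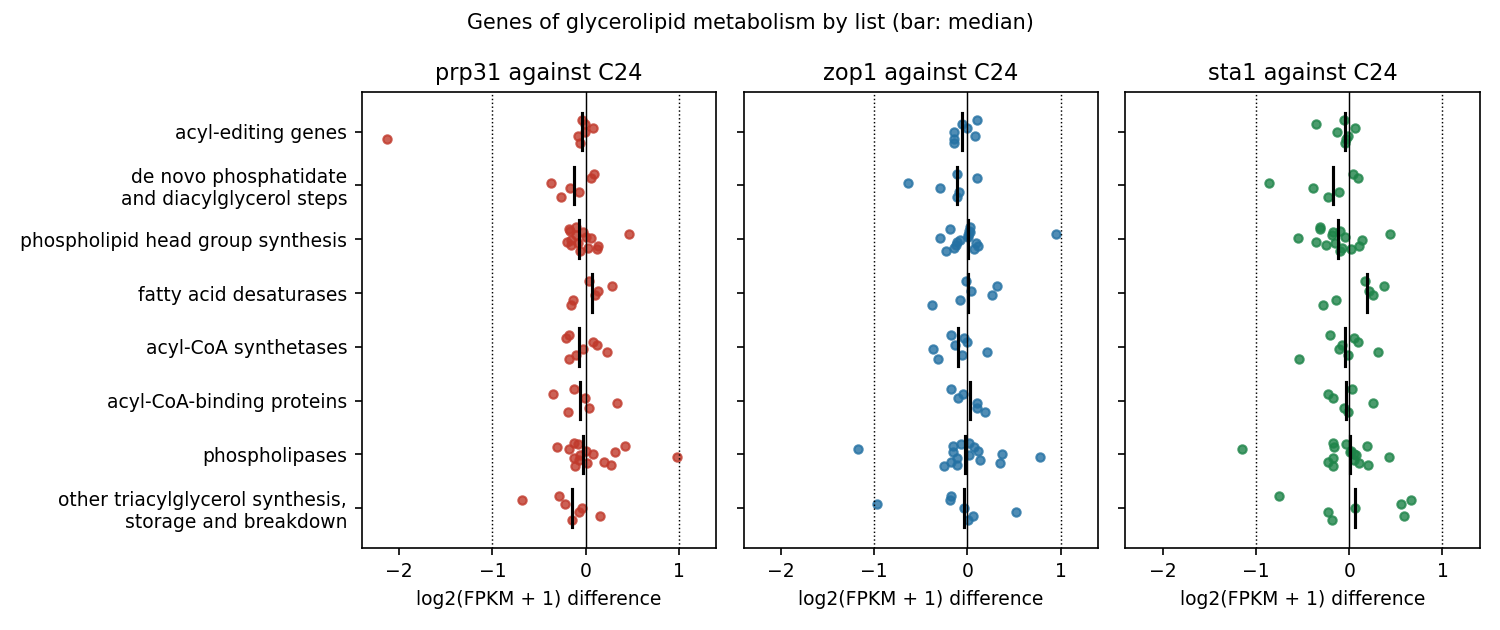
Difference of each mutant from C24 in log2(FPKM + 1) for the 7 acyl-editing genes and 7 lists of glycerolipid genes averaging 1 FPKM or more (points are genes, bars medians, dotted lines the 2-fold rule). LPLAT2 at -2.13 in prp31 and PLA2-ALPHA at -1.17 in zop1 and -1.15 in sta1 are the points past the rule.

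Facts of the whole series bear on these values as follows. In units of 1000000 reads, the implied depth came to 54.6 for prp31, 40.7 for zop1, 44.3 for sta1 and 49.2 for C24. ZOP1 was lowest in zop1 (7.99 FPKM, against 14.1 FPKM in C24), and STA1 was at 18.9 FPKM in sta1, against 14.1 FPKM in C24, so its level does not check the sta1 label. Green shoot markers summed to 33649.6 FPKM in prp31, 27645 FPKM in zop1, 35116 FPKM in sta1 and 33003 FPKM in C24. Of 8 such markers 7 were detected, while RBCS1A, a gene used in all green tissue, is at 0 in all 4 libraries, which shows that a listed 0 need not be a measured absence. All 10 root markers were detected in each library, with sums of 145 FPKM in prp31, 176 FPKM in zop1, 146 FPKM in sta1 and 158 FPKM in C24. None of the 8 root and 7 shoot markers that averaged 1 FPKM or more met the 2-fold rule in any mutant. That is near the share of all loci (0.426% to 1.28% per mutant and direction). The 6 seed and embryo markers summed to 7.04 FPKM in prp31, 2.996 FPKM in zop1, 8.89 FPKM in sta1 and 15.5 FPKM in C24. Of 4 measured ones, 1 was lower by the rule in prp31 (beside 0.426% of all loci), CRA1 (AT5G44120). In zop1 (beside 1.28%) and sta1 (beside 1.19%) 2 each were lower, CRA1 and CRC (AT4G28520). CRA1 was at 1.63 FPKM in prp31, 0.643 FPKM in zop1, 1.47 FPKM in sta1 and 6.14 FPKM in C24. CRC was at 3.02 FPKM in prp31, 0.09 FPKM in zop1, 0.229 FPKM in sta1 and 5.37 FPKM in C24. Both were highest in C24, the single library that every mutant is compared with, while OLEO1 and OLEO2 were highest in sta1. OLEO1 and OLEO2 are also among these seed markers. The part of organ composition in the oleosin and other differences was not tested.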

How the data were processed

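Messenger RNA was enriched with oligo(dT) beads and sequenced, per the labels' protocols. The authors deposited 1 table of FPKM values with 4 columns, used as deposited; TopHat2 2.0.12, Bowtie, Cufflinks 2.0.1, Cuffdiff and TAIR10 are named in the submitters' processing notes, with roles and settings not given in the sources used here. Members and gene lists were chosen with earlier results of these data known. Genes named are the 7 members, the 5 loci most like LPLAT2, its 3 neighbours on either side and the mutated genes. List genes that met the rule or differed most are named too, except in the root and green shoot lists. AT1G12650, FAD3, PDIL5-4, SAG29, AT1G63080, AT1G62510, RBCS1A and the 3 microRNA loci fall outside this rule and were chosen after their values were seen.

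Differences are of log2(FPKM + 1), which understates changes of low genes; folds and ratios are of FPKM. The 19240 loci averaging 1 FPKM or more entered. Whole reads were recovered at 16204 of 24606 loci above 0 in at least 2 libraries (65.9%), with a tolerance of 0.001 read or 1.2e-05 of the value, and the step was tested on simulated data. Depth came from 3048 single-transcript loci, of which 917 agree on transcript length less 204 nt. Gene models and sequences are from RefSeq TAIR10.1, in which 31416 loci were found. Coding sequences were aligned with Biopython 1.88. Alternatives were pseudocounts of 0.1 and 5, median-of-ratios scaling, no filter and a filter of 5 FPKM.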

Additional observations from a re-analysis of the deposited data

How the results depend on the processing

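LPLAT2, chosen for being low in prp31 only, was past the 2-fold rule in prp31 against C24, zop1 and sta1 under all pseudocounts and scalings tried (9 of 9 values). These values share the 1 prp31 library that chose the gene, so they describe the scale used and are not independent support. Against C24 the log2 difference was -2.48 with a pseudocount of 0.1 and -1.35 with 5, against zop1 -2.32 and -1.24, and against sta1 -2.44 and -1.32. Of 54 values of the 6 other genes none passed the rule (largest 0.39), and 53 stayed within the counting interval of the value reported; LPEAT2 in sta1 was at -0.07 under median-of-ratios scaling. Counts of loci moved by over 1.5 times as follows. With a pseudocount of 0.1, zop1 had 289 higher and 389 lower loci, sta1 232 and 387, and 25 loci were lower in prp31 than in each other library. With a pseudocount of 5 there were 58 higher and 43 lower in prp31, 80 and 100 in zop1, 79 and 101 in sta1, and 6 low in prp31 alone. With a filter of 5 FPKM there were 54 higher and 40 lower in prp31, 159 lower in zop1, 92 and 147 in sta1, and 9 low in prp31 alone. The filter leaves fewer loci to count. A larger pseudocount shrinks every log2 difference by its definition, most at low FPKM, so fewer of the same loci pass a fixed rule. No paired analysis was possible because each genotype has 1 library.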
